A study of Mus musculus with 6 samples.

Results

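The proteasome subunit genes of mouse tumors were described in 5 kinds of cells. The members were every gene whose symbol starts with Psma, Psmb, Psmc, Psmd or Psme followed by a number, 44 of 34187 gene features. Of these, 5 are interferon-inducible members of the immunoproteasome (Psmb8, Psmb9, Psmb10, Psme1, Psme2) and 32 are other subunits of the 20S core or the 19S cap, among them Psma8 of the testis. The rest are 3 assembly chaperones of the cap (Psmd5, Psmd9, Psmd10), the activators Psme3 and Psme4, Psme2b and the thymic Psmb11. C57BL/6 mice carried subcutaneous 6694c2vTRP1 tumors, a KPC pancreatic ductal adenocarcinoma line. Treatment was PBS, mono-IL10 (IL-10 made monomeric; 26 µg per mouse) or IL10/2-Trikine (mono-IL10 extended to recruit the IL-2 receptor beta chain; 30.6 µg per mouse), in 2 intraperitoneal doses from day 8 on alternate days, and tumors were taken on day 14. Each group had 5 mice with a hashtag each, and the CD45+ cells that beads had pulled from the 5 tumors were pooled into 1 droplet 5′ library per treatment. Treatment and library therefore cannot be told apart in any comparison below, and p-values measure only the spread between the mice of these libraries.

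The proteasome degrades ubiquitin-tagged proteins. Its 20S core is a barrel of alpha and beta rings with 3 proteolytic subunits, Psmb5 (chymotrypsin-like), Psmb6 (caspase-like) and Psmb7 (trypsin-like), and a 19S cap of ATPases (Psmc) and non-ATPases (Psmd) recognises, unfolds and feeds in the substrate. Under interferon, newly built cores take up Psmb8 in place of Psmb5, Psmb9 in place of Psmb6 and Psmb10 in place of Psmb7, and the PA28 activator of Psme1 and Psme2 can replace a cap. Lymphocytes and antigen-presenting cells carry this immunoproteasome at baseline, and it cuts peptides that fit MHC class I.

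Promoter sequences were available from RefSeq (build GRCm38.p6, 250 bases before to 50 bases after the start of the gene) for 37 of the 44 members. They were searched on both strands for the core of the interferon-stimulated response element, GAAA, any 2 bases and GAAA again, and for the core of the gamma-activated site bound by STAT dimers, TTCNNNGAA, because mono-IL10 and IL10/2-Trikine act through STAT proteins. The first was found in 4 members (Psmb3, Psmd4, Psmd9, Psme1) and in 3.99% of 27025 genes. The second was found in 2 members (Psmb8, Psmd2) and in 9.55% of genes. The 6 windows of 30 bases are shown with the motif in capitals, read along the gene's own strand. They lie at chr11:97703261-97703290 for Psmb3, chr3:95042675-95042704 for Psmd4 (minus strand), chr5:123228021-123228050 for Psmd9, chr14:55578493-55578522 for Psme1, chr17:34198088-34198117 for Psmb8 and chr16:20651646-20651675 for Psmd2.
Psmb3: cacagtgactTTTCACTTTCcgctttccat
Psmd4: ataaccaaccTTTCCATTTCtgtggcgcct
Psmd9: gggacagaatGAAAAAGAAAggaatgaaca
Psme1: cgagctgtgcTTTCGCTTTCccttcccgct
Psmb8: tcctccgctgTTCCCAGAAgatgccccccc
Psmd2: gcgcgtggccTTCTGGGAAaaggggcggtg
A match describes letters in a window and no more, and the other matched promoters held neither core in this span.

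NK and T cells were those of the authors' annotation that carried a mouse, 507 and 865 cells. Macrophage- or monocyte-like cells (19551, called macrophages from here), dendritic-cell-like cells (612) and tumor epithelial-cell-like cells (19466, called tumor cells) were named from clusters by marker genes. The clustering itself left the members out. Cells without a mouse did not enter the sums. With them there were 863 NK cells, 1200 T cells, 20522 macrophages, 807 dendritic cells and 36123 tumor cells. Whether the cells left out differed from those kept was not tested. Tumor cells were present although the cells had been isolated by CD45, and their 7 epithelial markers summed to 4177 to 6145 CPM over the mice. Depth differed between libraries. The median tumor cell had 26636 UMIs under PBS, 36324 under mono-IL10 and 10442 under IL10/2-Trikine, and the median macrophage 5028, 6215.5 and 2790. The libraries shared 408 to 700 cell barcodes, at most 1.58% of the smaller library. Counts were summed per mouse and population, and levels are in CPM, UMIs scaled to a total of 1000000 per mouse and population. They count molecules and need no scaling by gene length. The mono-IL10 mouse 3 had 9 NK cells and did not enter the NK cell values, so n = 4 there.

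In PBS mice tumor cells had the highest summed level of the 44 genes, and macrophages the lowest. It was 6680 ± 118 CPM in tumor cells, 6292 ± 353 in dendritic cells, 5932 ± 246 in T cells, 4996 ± 357 in NK cells and 4368 ± 156 in macrophages (SD, n = 5 mice each). Psmb1 had a median over all mice of 507 CPM in tumor cells, 333 in T cells, 272 in NK cells, 252 in dendritic cells and 172 in macrophages. Psma7, an alpha ring subunit, had 460 CPM in tumor cells against 196 in macrophages. Psmd7, a scaffold subunit of the 19S lid, had 190 CPM in tumor cells and 51 to 78 CPM in the other populations. The genes of specialised proteasomes were near or at 0: Psmb11 of the thymic cortex and Psma8 of the testis had 0 UMIs in NK and T cells, which allows up to 3 molecules in all. Psme2b, a near copy of Psme2, stayed at a median of 5 to 21 CPM, and its reads may be shared with Psme2.

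**Figure D1:**
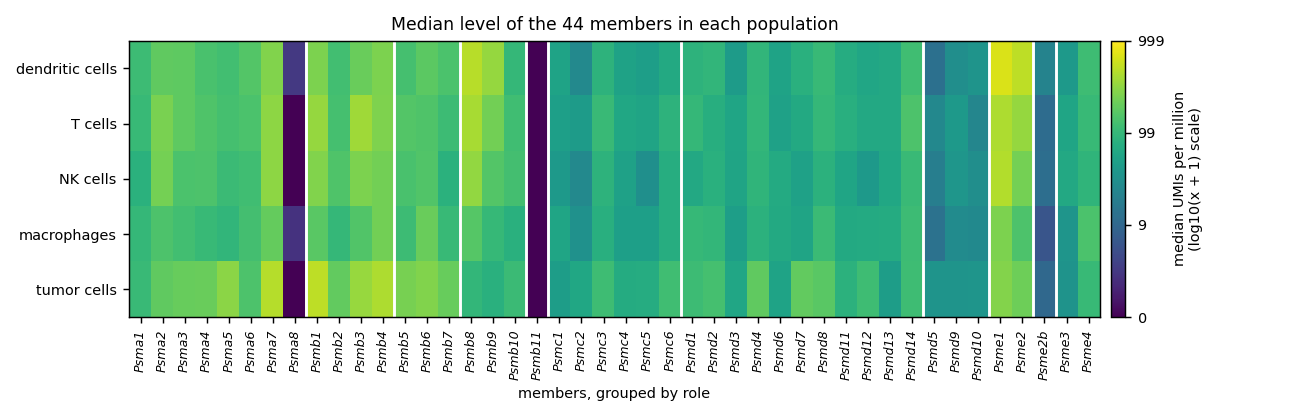
The heat map shows the median CPM of each of the 44 members over all mice (columns, grouped by role) in the 5 populations (rows), on a log10(x + 1) colour scale. Tumor cells are brightest in the 20S alpha and beta rings, and dendritic, T and NK cells in Psmb8, Psmb9, Psme1 and Psme2.

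The immunoproteasome genes were ordered differently from the rest. Psmb8, which replaces Psmb5, had a median of 480 CPM in dendritic cells, 409 in T cells, 325 in NK cells, 162 in macrophages and 97 in tumor cells. Psmb9 followed the same order, with 337, 231, 158, 100 and 80 CPM. Psme1 and Psme2, the alpha and beta chains of PA28, reached 684 and 503 CPM in dendritic cells. Psmb10 differed from its partners, since its medians lay between 80 and 128 CPM in all 5 populations, and tumor cells, at 110 CPM, were above macrophages, at 80 CPM. Psmb5 and Psmb7, which Psmb8 and Psmb10 replace, were highest in tumor cells at 240 and 201 CPM and lay between 82 and 158 CPM elsewhere. Psmb6, which Psmb9 replaces, was less far apart. Outside the interferon-led clusters described below it averaged 257 CPM in tumor cells and 200 CPM in macrophages.

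**Figure D2:**
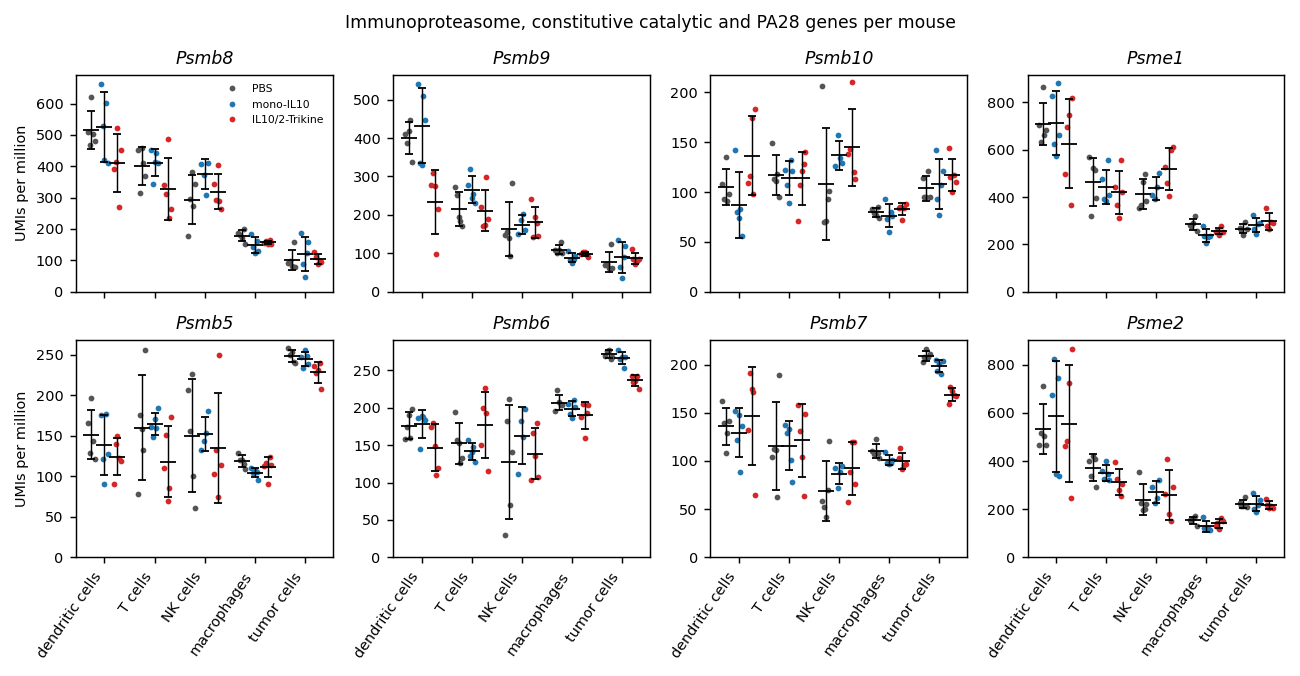
Each panel shows 1 gene and each point 1 mouse, in CPM, UMIs per 1000000 (vertical axis, from 0) for the 5 populations, with PBS, mono-IL10 and IL10/2-Trikine side by side and bars for the group mean and SD. Psmb8, Psmb9, Psme1 and Psme2 are highest in dendritic cells, while Psmb5 and Psmb7 are highest in tumor cells.

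The balance was expressed as the share of Psmb8, Psmb9 and Psmb10 in the UMIs of the 6 catalytic genes. It ran from a lowest of 53.5% through a median of 67.9% to a highest of 73.8% in dendritic cells of the 15 mice. The same 3 values were 52.3%, 65.1% and 69.9% in T cells, 51.8%, 64.1% and 73.3% in NK cells (n = 14), 39.7%, 44.5% and 49.3% in macrophages, and 18.2%, 31.1% and 38.9% in tumor cells. Dendritic, T and NK cells did not overlap with macrophages, nor macrophages with tumor cells, and within each mouse that had both populations these orders held. The top 3 overlapped: NK cells were above T cells in 6 of 14 mice, and T cells above dendritic cells in 2 of 15. The populations of a treatment share their library and differ in depth per cell, and no test was made on the shares.

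**Figure D3:**
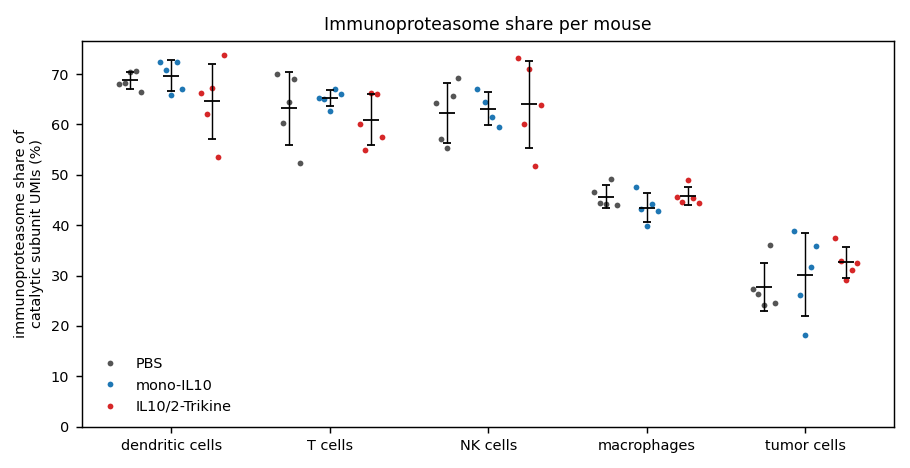
Each point is the immunoproteasome share of catalytic subunit UMIs (%, vertical axis from 0) in 1 mouse, for the 5 populations and 3 treatments, with bars for the group mean and SD. Macrophages lie between 39.7% and 49.3%, above all tumor cell values and below the lymphocytes and dendritic cells, and the 3 treatments overlap in every population.

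The 3 exchange pairs did not contribute equally. In macrophages of PBS mice Psmb8 made up 59.9% ± 2.06 of Psmb8 plus Psmb5, while Psmb9 made up 34.6% ± 2.94 of Psmb9 plus Psmb6 and Psmb10 41.9% ± 2.05 of Psmb10 plus Psmb7 (SD, n = 5). Psmb8 alone of the 3 was above its partner in macrophages. In tumor cells of PBS mice the same shares were 28.5% ± 6.32, 22.0% ± 5.65 and 33.2% (range 30.6 to 36.8%), with the Psmb10 pair the highest. In dendritic cells they were 77.5% ± 1.79, 69.3% ± 4.11 and 43.6% ± 6.63, with the Psmb10 pair the lowest.

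Values given for a whole cluster, here and below, also count cells for which no mouse was called. Among the authors' 12 NK and T cell clusters the share was widest apart in small ones. In the interferon-signature CD8 T cells 63 of 70 catalytic UMIs were of the inducible genes (16 cells, exact 95% binomial interval of the share 80.5 to 95.9%), and in the cluster named naive T 6 of 13 were (25 cells, 19.2 to 74.9%). The others lay between 58.3% in cycling NK cells and 71.8% in naive CD8 T cells, with regulatory T cells at 68.0%. These intervals cover counting error only. Cycling T cells, here with the cycling regulatory T cells, carried more proteasome transcripts in all. Their summed members were at 6625 ± 401 CPM against 5434 ± 316 CPM in the other T cells, higher in 10 of 10 mice that had both. Psmb9 was 284 against 183 CPM (10 of 10 mice), and Psmb6 179 against 115 CPM (9 of 10 mice), so that the share itself was 62.0% against 63.4%. The cycling cells were also deeper, with a median of 5115 against 2626.5 UMIs, and the part of depth in this was not tested.

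Among macrophage and tumor cell clusters the shares farthest from the rest were those of 2 clusters led by interferon-induced genes. A macrophage cluster led by Rsad2, Ifit2, Cmpk2 and Ifit1 had a share of 58.8%, where the other 12 macrophage clusters lay between 36.7% and 49.3%. A tumor cell cluster led by Iigp1, Cxcl10, Cxcl11 and Gbp2, genes that interferon gamma induces, had 54.4%, where the other 11 lay between 22.2% and 34.1%. These genes chose the clusters, so the values are a description. Within mice the share of this tumor cluster was 53.9% ± 2.76 against 29.4% ± 4.35 in the other tumor cells and higher in 14 of 14 mice. All 5 inducible members were higher there in every mouse. Psmb9 had 263 ± 32.7 against 80.0 ± 21.1 CPM, Psmb8 288 ± 58.5 against 104 ± 28.5, Psmb10 281 ± 31.5 against 104 ± 12.9, Psme1 446 ± 37.9 against 277 ± 25.6 and Psme2 379 ± 42.9 against 216 ± 16.9 CPM (SD, n = 14). The constitutive partners did not separate: Psmb5 was 251 against 239 CPM (higher in 9 of 14 mice), Psmb6 258 against 257 (7 of 14) and Psmb7 201 against 191 (10 of 14). The cells of this cluster were shallower, with a median of 21675.8 against 26205 UMIs, and the part of depth was not tested. In the macrophage cluster the same genes were higher in 12 or 13 of 13 mice, for example Psmb8 with 291 against 159 CPM, and Psmb5 was 114 CPM in both.

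**Figure D4:**
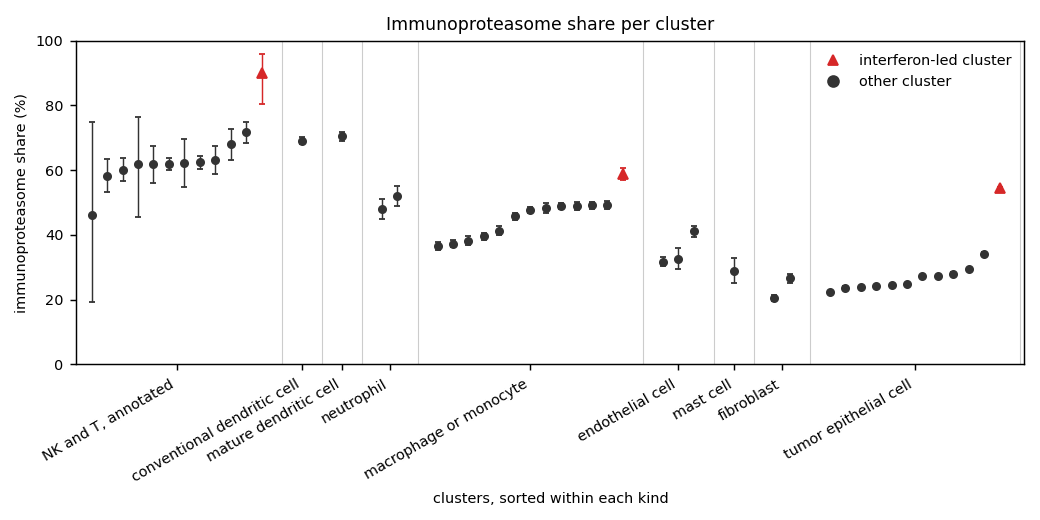
Each point is the immunoproteasome share (%, vertical axis) of 1 cluster with its exact 95% binomial interval, sorted within each kind of cell, and red triangles mark the clusters led by interferon-induced genes. The interferon-led tumor cluster at 54.4% lies above all macrophage clusters but the interferon-led one.

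The percent of tumor cells in this cluster differed between mice more than between treatments. It was 4.02, 3.19, 1.67, 5.46 and 2.71% in the PBS mice, 9.96, 2.58, 0.325, 4.25 and 5.07% in the mono-IL10 mice, and 7.88, 3.87, 2.88, 4.78 and 4.52% in the IL10/2-Trikine mice. The 3 groups overlapped. The mono-IL10 mouse with the fewest such cells, mouse 3, also had the lowest share of all mice in tumor cells (18.2%) and in macrophages (39.7%). The mono-IL10 mouse with the most, mouse 1, had the highest share in tumor cells (38.9%). In PBS, mouse 4 was highest in both populations (36.0% and 49.3%). Other values went another way. The IL10/2-Trikine mouse 3 had the fewest such tumor cells of its group (2.88%), yet its macrophage share was 49.0%, where the others of its group had 44.5 to 45.6%. In the mono-IL10 mouse 3, 2.50% of macrophages were in the interferon-led macrophage cluster, within a group range of 0.785 to 3.22%.

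The dendritic cells named here fell into a conventional cluster, led by Plet1, Clec9a, Xcr1 and Itgae, and a mature cluster. A further cluster of 929 cells, with Ccl17, Cd209a and Mgl2 among its leading genes, also scored best as conventional dendritic cells. It stayed unnamed and did not enter, so conventional cells here are those of the first cluster only. The conventional and mature clusters had nearly the same share, 69.1% and 70.5%, reached with different genes. In 9 mice with at least 10 cells of each, Psmb9 was 251 ± 57.3 CPM in mature cells (range 150 to 370) and 534 ± 92.5 CPM in conventional cells (417 to 699), lower in mature cells in every mouse. Psme2 went the other way, with 756 ± 207 CPM (440 to 1064) against 276 ± 53.8 CPM (167 to 354), higher in mature cells in 9 of 9 mice. Psme1, its partner in PA28, was 696 against 691 CPM, and Psmb8 499 against 483 CPM. The constitutive Psmb5, Psmb6 and Psmb7 were each lower in mature cells in 8 of 9 mice. Mature cells had fewer UMIs, with a median of 6171.5 against 10690, and the part of depth was not tested.

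Tumor cells had the most members called between treatments, and also the most UMIs of members, 2908036 against 10925 in NK cells. By size, Psmb2 in NK cells (-0.88 on the log2 scale) and Psmd2 in T cells (0.86) exceeded Psmd8 in tumor cells (-0.61), all in IL10/2-Trikine against mono-IL10. In tumor cells the outcome changed with the cells compared, as given below. With all tumor cells, 24 of the 42 members that passed the filter on low counts were lower in IL10/2-Trikine than in PBS mice and 0 were higher (edgeR quasi-likelihood test, Benjamini-Hochberg adjusted p under 0.05). Of all 14908 genes tested, 11.3% were lower and 9.75% higher. The median log2 difference was -0.13 over the members and 0.00 over all genes. The mice of the 2 groups did not overlap in any of the 24, nor in 4 members that did not pass. These 28 of 42 compare with 10.9% of all genes whose IL10/2-Trikine mice all lay below the PBS mice in CPM. All 6 ATPases of the 19S base fell, as did 8 of 11 19S non-ATPases, 5 of 7 alpha ring subunits, 2 of 3 constitutive catalytic subunits, 1 of 4 structural beta subunits and 1 of 3 assembly chaperones. None of the 5 immunoproteasome members passed the test, and all 5 log2 differences were above 0.

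Psmd12, a lid subunit, had 119, 119, 123, 119 and 118 CPM in the PBS mice and 85.1, 92.3, 92.3, 93.5 and 87.2 CPM in the IL10/2-Trikine mice, a log2 difference of -0.37 ± 0.04 (SE; edgeR adjusted p = 3.9e-06). Psmd8, a lid subunit too, had 161, 175, 172, 166 and 183 CPM against 114, 131, 124, 121 and 132 CPM (-0.43 ± 0.05, edgeR adjusted p = 3.6e-05). Every IL10/2-Trikine mouse was below every PBS mouse for both. Psma1, an alpha ring subunit, fell by 0.31 on the log2 scale (edgeR adjusted p = 5.9e-05). Of the catalytic subunits, Psmb7 had 202, 208, 216, 207 and 210 CPM against 159, 176, 173, 169 and 167 CPM (-0.27 ± 0.04, edgeR adjusted p = 0.00011), and Psmb6 had a log2 difference of -0.16 ± 0.04 (edgeR adjusted p = 0.0043). Psmb5 had -0.09 ± 0.04 and did not pass (edgeR adjusted p = 0.17).

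The depth of these cells moved with the result. Per-mouse medians were 23871 to 30524.5 UMIs per tumor cell in PBS, 33671 to 41542.5 in mono-IL10 and 9992.5 to 12203.5 in IL10/2-Trikine, with no overlap between the groups. When the sum of each mouse was thinned to the smallest total, which leaves the depth per cell unequal, 21 members were lower and 0 higher, where 9.95% of all genes were lower. When only tumor cells of 10000 to 20000 UMIs were compared (1248 of PBS, 619 of mono-IL10 and 4656 of IL10/2-Trikine), 11 members were higher in IL10/2-Trikine and 2 lower, where 12.4% of all genes were higher and 9.96% lower. The median over the members was 0.12 there. This window was chosen after the depth difference had been seen, and it takes the shallower PBS cells and the deeper IL10/2-Trikine cells. Of the 24 members that fell, 6 kept their sign in the window and 5 passed the test in the other direction. Psmd12 was then at a log2 difference of 0.03, Psmb7 at 0.12 and Psmb5 at 0.18 (edgeR adjusted p = 0.029). Depth was closer in the window but not equal, with medians of 13417 UMIs per cell for IL10/2-Trikine against 15391 for PBS and 15790 for mono-IL10.

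**Figure D5:**
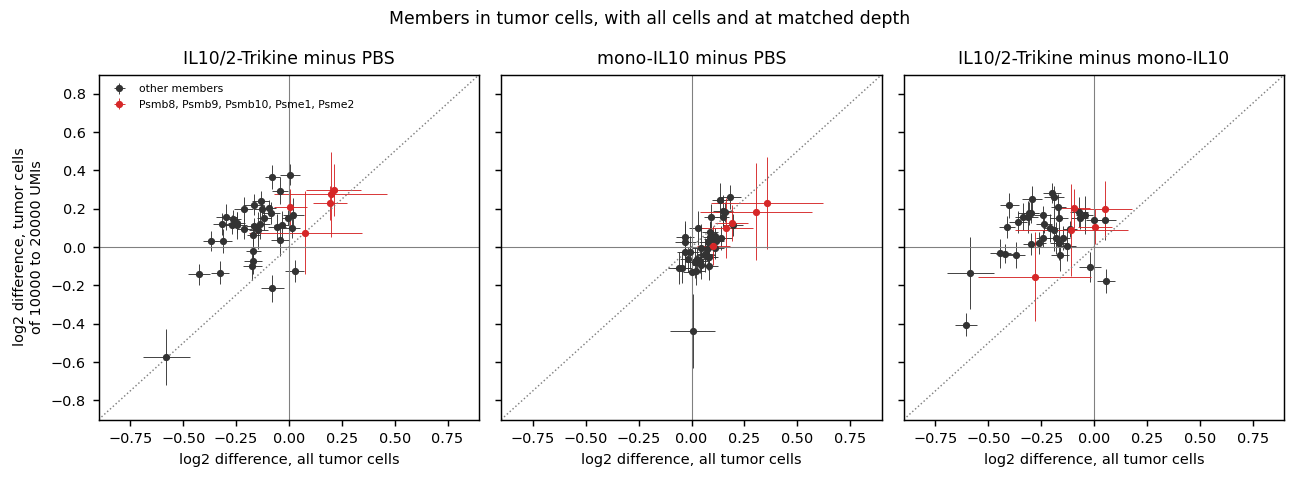
Each point is 1 member in tumor cells, with its log2 difference and SE over all cells (horizontal axis) and over cells of 10000 to 20000 UMIs (vertical axis), in 1 panel per comparison. In both IL10/2-Trikine panels most members lie left of 0 and above 0, and the 5 immunoproteasome members are in red.

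Markers of other cells moved as well. The 11 macrophage markers summed to 62.5 to 135 CPM in tumor cells of PBS mice, 30.7 to 68.6 in mono-IL10 and 61.7 to 319 CPM in IL10/2-Trikine, against 8997 to 12318 CPM in macrophages themselves. When tumor cells with 2 or more UMIs of another lineage's markers were left out, 5 members were lower and 0 higher, where 4.14% of all genes were lower. The tumor cells kept numbered 1332, 835 and 5549, with median depths of 16570.5, 21593 and 9296 UMIs, so the groups were closer in depth as well. Psme2b was the 1 member that passed the test as lower over all cells, in the window and without other-lineage cells. It had 9.27 to 11.2 CPM in PBS and 5.96 to 7.96 CPM in IL10/2-Trikine mice (-0.58 ± 0.11, edgeR adjusted p = 0.0016), -0.57 in the window (edgeR adjusted p = 0.0074) and -0.75 without other-lineage cells (edgeR adjusted p = 0.0057).

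None of the 5 inducible members passed the test between treatments in tumor cells. Psmb8 had 90.6, 96.8, 81.3, 157 and 79.2 CPM in PBS, 187, 86.9, 48.0, 123 and 157 CPM in mono-IL10, and 127, 112, 89.0, 96.9 and 94.3 CPM in IL10/2-Trikine. The groups overlapped, and the log2 difference of IL10/2-Trikine from PBS was 0.08 ± 0.27 (edgeR adjusted p = 0.88). Psmb9 differed by 0.20 ± 0.27, Psmb10 by 0.21 ± 0.13, Psme1 by 0.19 ± 0.08 (edgeR adjusted p = 0.093) and Psme2 by 0.01 ± 0.08. Psme1 passed without the IL10/2-Trikine mouse 3 (0.24, edgeR adjusted p = 0.047). The share averaged 27.7% ± 4.83 for PBS, 30.2% ± 8.21 for mono-IL10 and 32.6% ± 3.09 for IL10/2-Trikine (SD, n = 5), and the mice of the 3 groups overlapped. The PBS mouse 4 was at 36.0%, where the other PBS mice had 24.2 to 27.4% and lay below all IL10/2-Trikine mice (29.1 to 37.4%). In the depth window these means were 31.1%, 33.3% and 32.7%.

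In mono-IL10 tumor cells 6 members were higher than in PBS and 0 lower, where 3.86% of all genes were higher and 2.6% lower, and the median over the members was 0.08. They were the structural beta subunits Psmb1 (0.15 ± 0.03, edgeR adjusted p = 0.014), Psmb3 (0.20 ± 0.05, edgeR adjusted p = 0.024) and Psmb4, the 19S subunits Psmd4 (0.16 ± 0.04, edgeR adjusted p = 0.029) and Psmd8, and the chaperone Psmd9. For none of the 6 were the mice of both groups apart in CPM. Psmb3 had 329, 345, 370, 329 and 340 CPM in PBS and 392, 354, 373, 345 and 365 CPM in mono-IL10. The test rescales each mouse by a TMM factor, which was 0.996 to 1.06 in PBS and 0.943 to 0.985 in mono-IL10 and adds to these differences. Psmb3, Psmd4 and Psmd9 are among the 4 members whose interferon-stimulated response element core is shown above, an overlap seen afterwards and not tested. The remaining one, Psme1, did not pass here, and Psmb1 had no promoter sequence to search. In the depth window 1 member was higher, where 1.52% of all genes were, and without other-lineage cells 0. All 6 log2 differences stayed above 0 in both, with Psmb1 at 0.16 and 0.15, Psmb3 at 0.12 and 0.17, Psmd4 at 0.18 and 0.10 and Psmd8 at 0.26 and 0.20. Leaving out mouse 1 or 4 of PBS or mouse 1 or 3 of mono-IL10 left 1, and leaving out mouse 3 or 5 of PBS or mouse 5 of mono-IL10 left 2.

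Between the treated groups, 30 members were lower in IL10/2-Trikine than in mono-IL10 tumor cells and 0 higher, against 16.5% of all genes lower and 15.8% higher, with a median of -0.19. The mice did not overlap in 21 of the 30, where in 6.96% of all genes the IL10/2-Trikine mice all lay below the mono-IL10 mice in CPM. All 6 ATPases, all 4 structural beta subunits and all 3 constitutive catalytic subunits fell, and none of the 5 immunoproteasome members passed. Psmd8 was the largest, with 183, 190, 180, 168 and 186 CPM in mono-IL10 and -0.61 ± 0.05 on the log2 scale (edgeR adjusted p = 1.7e-06). In the depth window 9 members were higher and 2 lower, where 13.1% of all genes were higher and 12.1% lower. Without other-lineage cells 8 were lower, where 6.76% of all genes were. Psmd8 was lower in both, by 0.41 and 0.51 on the log2 scale.

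By cluster, the summed members were lower in IL10/2-Trikine than in PBS in 12 of 12 tumor clusters and lower than in mono-IL10 in 12 of 12. The share was higher in IL10/2-Trikine than in PBS in 12 of 12 and in mono-IL10 than in PBS in 11 of 12. Between the treated groups it was higher in IL10/2-Trikine in 2 of 12 and lower in 10. These clusters hold 36123 tumor cells, of which 19466 had a mouse. The median UMIs per cell was lower in IL10/2-Trikine than in both other groups in 12 of 12 clusters, and its part was not tested. The clusters share their mice and libraries, so these counts are not independent.

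Fewer members passed the test in macrophages. In IL10/2-Trikine 4 of 43 members were lower than in PBS and 0 higher, where 9.06% of all genes were lower, and the medians were -0.10 over the members and 0.01 over all genes. Psma3 (-0.21 ± 0.06, edgeR adjusted p = 0.024), Psmd14, the deubiquitinase of the lid (-0.20 ± 0.06, edgeR adjusted p = 0.029), the chaperone Psmd10 (-0.28 ± 0.09, edgeR adjusted p = 0.028) and Psma1 were the 4. Leaving out mouse 2 of PBS or mouse 5 of IL10/2-Trikine left 1, and leaving out mouse 1, 3 or 4 of PBS or mouse 1 of IL10/2-Trikine left 2. In macrophages of 2500 to 5000 UMIs 0 were lower and 1, Psmb1, was higher, where 7.07% of all genes were higher. In mono-IL10, 3 were lower than in PBS and 0 higher, where 14.1% of all genes were lower. Psma4 had 124, 115, 124, 122 and 105 CPM in PBS and 104, 95.5, 88.6, 91.3 and 86.9 CPM in mono-IL10, without overlap (-0.25 ± 0.06, edgeR adjusted p = 0.0055). It stayed lower in the window (-0.42) and without other-lineage cells (-0.29), and had an adjusted p of 0.28 in edgeR when the sums were thinned (-0.18). Psmd14 was the second (-0.19), and it did not pass in the window (-0.11, edgeR adjusted p = 0.44) or with thinned sums (-0.16, edgeR adjusted p = 0.37). Psma3, at -0.14 and not past the test over all cells, passed as lower in the window (-0.32, edgeR adjusted p = 0.0073) and without other-lineage cells (-0.17, edgeR adjusted p = 0.031). Leaving out the mono-IL10 mouse 2 or 4 left 1 member, and leaving out the mono-IL10 mouse 1 gave 6.

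Psmb9, an immunoproteasome member, was the third. It had 109, 101, 108, 130 and 100 CPM in PBS and 106, 83.0, 74.7, 85.7 and 92.4 CPM in mono-IL10 macrophages, which overlapped (-0.23 ± 0.08, edgeR adjusted p = 0.043). This call was lost in 6 of 9 other settings, with an adjusted p of up to 0.24 in edgeR or DESeq2, and in 11 of 15 fits that left out 1 mouse, and the PBS mouse 4 at 130 CPM stood apart from its group. Psmb8, Psme1 and Psme2 had log2 differences of -0.18 each and did not pass. Without the mono-IL10 mouse 1 all 3 passed, Psmb8 at -0.26, Psme1 at -0.23 and Psme2 at -0.28 (edgeR adjusted p = 0.031, 0.021 and 0.023). Psme1 also passed in the window (-0.31, edgeR adjusted p = 0.024), without other-lineage cells (-0.20, edgeR adjusted p = 0.0495) and without the PBS mouse 5 (-0.22, edgeR adjusted p = 0.046). Between IL10/2-Trikine and mono-IL10, 0 of 43 members passed in edgeR, where 11.8% of all genes did. At an unadjusted p under 0.05 there were 3, and DESeq2 called 0. Counts at an unadjusted p or in DESeq2, here and below, are printed without the share of all genes. As printed, they do not show whether members passed more or less often than other genes. In the window 5 were higher, where 7.7% of all genes were. They were Psme2 (0.44, edgeR adjusted p = 0.011), Psma3, Psma4, Psma7 and Psmb1. Among cells with at least 2000 genes Psmb9 was higher (0.33, edgeR adjusted p = 0.036).

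Whether a treatment acted differently on tumor cells and macrophages was tested as a difference of effects, in a fit with the mouse as a term, for 43 members in 15 mice. For IL10/2-Trikine against PBS 5 members differed, against 6.18% of all genes. Psme1 was the member with the higher effect in tumor cells (difference 0.35), and Psmc4, Psmd8, Psmd13 and Psmc5 had the lower one. For mono-IL10 against PBS 5 differed, all with the higher effect in tumor cells, against 16.6% of all genes, among them Psme1 (0.36) and Psma4 (0.33). For IL10/2-Trikine against mono-IL10 15 differed, all with the lower effect in tumor cells, against 11.4% of all genes. This was not fitted in the depth window.

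NK cells were few, 10 to 69 cells per mouse, and 28 members passed the filter. The 16 that did not were mostly 19S genes, among them 4 of the 6 ATPases. None differed between IL10/2-Trikine and PBS in edgeR, where 4.42% of all genes did, nor between mono-IL10 and PBS, where 0.297% did. DESeq2 called 0 in both, and 2 and 4 had an unadjusted p under 0.05. Psmb8 had 177, 295, 381, 272 and 342 CPM in PBS, 408, 373, 308 and 409 CPM in mono-IL10, and 345, 293, 405, 290 and 265 CPM in IL10/2-Trikine, all overlapping. The interval of its log2 difference between IL10/2-Trikine and PBS was -0.33 to 0.41 (2 SE). Between IL10/2-Trikine and mono-IL10, 2 members were lower, where 1.44% of all genes were. Psmb1 had 387, 349, 357 and 332 CPM in mono-IL10 and 276, 249, 255, 230 and 221 CPM in IL10/2-Trikine, without overlap (-0.61 ± 0.16, edgeR adjusted p = 0.043). Psmb2, its fellow structural subunit, had 159, 191, 147 and 189 CPM against 69.9 to 149 CPM, which overlapped in 1 IL10/2-Trikine mouse (-0.88 ± 0.22, edgeR adjusted p = 0.031). Leaving out 1 mouse ended the call of Psmb1 in 8 and that of Psmb2 in 6 of 14 fits, and neither passed when cells with markers of another lineage or cycling cells were left out. The differences themselves stayed near their size there, at -0.49 and -0.57 for Psmb1 and -0.86 and -0.90 for Psmb2, and the fit without other-lineage cells had 2 mono-IL10 and 4 IL10/2-Trikine mice. The 8 NK cell markers moved too, with sums of 1297 to 3737 CPM in NK cells of PBS mice, 3600 to 4357 in mono-IL10 and 6044 to 12254 CPM in IL10/2-Trikine, and their part was not tested. Depth separated the same groups, with per-mouse medians of 3813 to 6124.5 UMIs per NK cell in mono-IL10 and 2284 to 2944 in IL10/2-Trikine, and its part was not tested either.

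In T cells 34 members passed the filter, and 10 did not, among them Psmc2, Psmc5 and Psme3. None differed between IL10/2-Trikine and PBS in edgeR (8.35% of all genes did) or between mono-IL10 and PBS (1.54%). DESeq2 called 0 in both, and 3 and 2 had an unadjusted p under 0.05. Between IL10/2-Trikine and mono-IL10, 1 member was higher, where 6.56% of all genes were. This was Psmd2, a large scaffold subunit of the 19S base. It is 1 of the 2 members with a TTCNNNGAA core, an overlap seen afterwards and not tested. The other, Psmb8, had a log2 difference below 0 in this comparison (-0.38) and did not pass. Psmd2 had 63.5, 61.8, 44.4, 62.0 and 74.7 CPM in mono-IL10, 118, 112, 156, 128 and 91.0 CPM in IL10/2-Trikine (0.86 ± 0.21, edgeR adjusted p = 0.0072), and 58.3 to 93.8 CPM in PBS. All IL10/2-Trikine mice were above all mono-IL10 mice. The markers of the T cell population moved with this comparison. The 8 T cell markers summed to 2725 to 3436 CPM in PBS, 3866 to 4438 in mono-IL10 and 1598 to 2332 CPM in IL10/2-Trikine, and the 8 NK cell markers to 363 to 615, 677 to 1256 and 1698 to 2863 CPM. The groups overlapped in neither, and the part of these markers in the T cell results was not tested. The NK cell markers of the IL10/2-Trikine T cells lay within the range of NK cells of PBS mice, 1297 to 3737 CPM. The name T cells is that of the authors' clusters and is uncertain for this group. Depth separated the treated groups too, with per-mouse medians of 3361.5 to 4203.5 UMIs per T cell in mono-IL10 and 2472 to 3074 in IL10/2-Trikine. Its part was not tested either. Cycling T cells were 51.9% of T cells in IL10/2-Trikine, 22.4% in mono-IL10 and 17.7% in PBS. Cycling regulatory T cells were 6.08%, 1.36% and 4.94%. Without both of these clusters Psmd2 was too low to be tested, as it was with thinned sums and without other-lineage cells. With no filter on low counts its adjusted p was 0.16 in edgeR. Psmb9 and Psmb8 had log2 differences of -0.44 ± 0.17 and -0.38 ± 0.16 in the same comparison and did not pass (edgeR adjusted p = 0.10 and 0.12). With no filter on low counts both passed as lower (-0.59 and -0.54, edgeR adjusted p = 0.0495 and 0.035). Without the IL10/2-Trikine mouse 3, which had 486 CPM of Psmb8 where the others of its group had 235 to 340, Psmb8 passed as lower (-0.51, edgeR adjusted p = 0.034). The test of a difference in effect between NK and T cells called 0 of 36 members in edgeR in each comparison, where 0.0789%, 0.131% and 0.815% of all genes were called, and 2, 1 and 3 members had an unadjusted p under 0.05.

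In dendritic cells 39 members passed the filter and 0 differed in edgeR in any comparison. Of all genes, 0.22% differed between IL10/2-Trikine and PBS, 0.499% between mono-IL10 and PBS and 0.04% between the treated groups. At an unadjusted p under 0.05 there were 2, 0 and 4 members, and DESeq2 called 1, 0 and 1, each time Psmb9 as lower (DESeq2 adjusted p = 0.043 against PBS and 0.0069 against mono-IL10). It passed in edgeR too with no filter on low counts (edgeR adjusted p = 0.0014 and 0.00028). Psmb9 had 412, 388, 419, 446 and 337 CPM in PBS, 540, 335, 329, 508 and 448 CPM in mono-IL10, and 277, 308, 274, 98.1 and 216 CPM in IL10/2-Trikine. All IL10/2-Trikine mice were below all others, with log2 differences of -0.76 ± 0.21 from PBS (edgeR adjusted p = 0.16) and -0.92 ± 0.21 from mono-IL10 (edgeR adjusted p = 0.22). Depth separated these groups too, with per-mouse medians of 3062.5 to 4976.5 UMIs per dendritic cell in IL10/2-Trikine, 6238 to 10863 in PBS and 7915 to 11414 in mono-IL10, and its part was not tested. The 11 macrophage markers summed to 1274 to 4411 CPM in dendritic cells of PBS mice and 1763 to 4864 CPM in mono-IL10. In IL10/2-Trikine these markers summed to 399 to 6087 CPM, and their part was not tested. Mature cells, which had less Psmb9, made up 55.3% of PBS, 64.5% of mono-IL10 and 74.8% of IL10/2-Trikine dendritic cells. Over all cells of the conventional cluster Psmb9 was 592, 617 and 431 CPM in PBS, mono-IL10 and IL10/2-Trikine, and over the mature cluster 241, 310 and 253 CPM. Psmb10 did not move with Psmb9, at 109, 116, 174, 98.1 and 184 CPM in IL10/2-Trikine against 91.5 to 135 CPM in PBS.

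Other genes of the pathway were counted in the same fits, and many of these calls depended on the setting. The 16 other pathway genes hold proteasome assembly factors, ubiquitin receptors and shuttles. Of these, 1 was higher and 3 lower in IL10/2-Trikine than in PBS tumor cells, beside the 9.75% and 11.3% of all genes given above. Sem1, the smallest 19S subunit, had a log2 difference of 0.16, and Uchl5, a deubiquitinase bound to the cap, of -0.39. Neither passed in the depth window (0.07 and -0.11) or without other-lineage cells. In mono-IL10 tumor cells 3 were higher and 0 lower, where 3.86% of all genes were higher, among them Adrm1, the ubiquitin receptor that holds Uchl5 (0.31; 0.29 and not passing in the window), and Sem1 (0.18; not passing without other-lineage cells). Between the treated groups 1 was higher and 6 lower, where 15.8% and 16.5% of all genes were, among them Uchl5 (-0.34) and Adrm1 (-0.24). In the window Uchl5 was at 0.18 and Adrm1 at -0.01, and neither passed there or without other-lineage cells.

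In macrophages 0 of these genes passed in IL10/2-Trikine against PBS. In mono-IL10 1 rose and 2 fell, where 12.8% of all genes were higher and 14.1% lower. Usp14, a deubiquitinase of the cap, was at -0.32 and Sem1 at 0.25, and each call was lost in 1 of 9 other settings. Between the treated groups 3 were higher and 1 lower in macrophages, where 5.47% of all genes were higher and 6.33% lower. Usp14 was at 0.28, a call lost in 3 of 9 other settings and at 0.09 with thinned sums (edgeR adjusted p = 0.80). Vcp, the unfoldase that delivers substrates, was at 0.23, a call lost in 2 of 9 other settings and in 7 of 15 fits without 1 mouse. None passed in NK, T or dendritic cells, where 6, 7 and 12 of the 16 were tested.

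The 8 genes of peptide loading, which carry the products of the proteasome to the cell surface, were tested likewise. In T cells 3 were lower and 0 higher in IL10/2-Trikine than in PBS, where 3.68% of all genes were lower, among them B2m, the light chain of MHC class I (-0.45, edgeR adjusted p = 0.00016), and the heavy chain H2-K1 (-0.51, edgeR adjusted p = 0.00085). Against mono-IL10, 2 were lower in T cells, where 5.7% of all genes were, B2m (-0.36) and Nlrc5, the transactivator of MHC class I (-0.92). The T cell and NK cell markers moved between the same groups, as did depth between mono-IL10 and IL10/2-Trikine, as given above. Without other-lineage cells B2m did not pass against PBS (-0.62, edgeR adjusted p = 0.057) or mono-IL10 (-0.18, edgeR adjusted p = 0.56), nor H2-K1 (-0.43, edgeR adjusted p = 0.29). That setting kept 62 of 243 T cells in PBS, 88 of 441 in mono-IL10 and 62 of 181 in IL10/2-Trikine. Without cycling cells Nlrc5 did not pass (-0.84, edgeR adjusted p = 0.25). Nlrc5 also missed the threshold without the IL10/2-Trikine mouse 2 (edgeR adjusted p = 0.052). In NK cells B2m alone was lower, by 0.36 against PBS, where 1.95% of all genes were lower, and by 0.44 against mono-IL10 on the log2 scale. The call against PBS was lost in 3 of 6 other settings, with no filter on low counts (-0.25, edgeR adjusted p = 0.66), with thinned sums (-0.31, edgeR adjusted p = 0.055) and without other-lineage cells (-0.48, edgeR adjusted p = 0.38), where 1 PBS mouse was left, and that against mono-IL10 without the mono-IL10 mouse 1 (edgeR adjusted p = 0.054).

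In tumor cells Tapbp, the peptide editor tapasin, was higher in IL10/2-Trikine than in PBS (0.37, edgeR adjusted p = 0.021; -0.05 in the depth window), and it did not pass without other-lineage cells (0.20, edgeR adjusted p = 0.40). Of the fits without 1 mouse, 4 of 15 lost this call. H2-D1 was lower than in mono-IL10 (-0.29, edgeR adjusted p = 0.043), a call lost in the window (-0.27, edgeR adjusted p = 0.077), without other-lineage cells (-0.22, edgeR adjusted p = 0.26) and in 7 of 15 fits without 1 mouse. In macrophages Erap1, which trims peptides, was just past the threshold as lower in IL10/2-Trikine than in PBS (-0.25, edgeR adjusted p = 0.0498), a call lost in 7 of 9 other settings and 12 of 15 fits without 1 mouse. In dendritic cells 0 of the 8 passed.

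Irf8 and Irf9, 2 of the 4 interferon factors listed, are transcription factors of interferon responses, and no count over that list is given. In tumor cells Irf8 was at 0.516 to 1.22 CPM in mono-IL10 and 1.43 to 6.99 CPM in IL10/2-Trikine mice, a log2 difference of 1.81 (edgeR adjusted p = 0.0035), and Irf9 was higher by 0.36 (edgeR adjusted p = 0.0029), where 15.8% of all genes were higher. Irf8 was tested in only 7 other settings, where Irf9 was tested in 9, and it passed in those 7 (1.76 to 2.09). Irf9 did not pass in the depth window (0.31, edgeR adjusted p = 0.052) or without other-lineage cells (0.32, edgeR adjusted p = 0.058). Irf8 is abundant in dendritic cells and monocytes, and the macrophage and monocyte markers in these tumor cells moved the same way, from 30.7 to 68.6 CPM in mono-IL10 to 61.7 to 319 CPM in IL10/2-Trikine, a part in the result that was not tested. In macrophages Irf8 was higher in mono-IL10 than in PBS (0.32), as were 12.8% of all genes, a call lost in the depth window (0.21, edgeR adjusted p = 0.11). Irf9 was lower there (-0.28), as were 14.1% of all genes, a call lost in 3 of 9 other settings and 7 of 15 fits without 1 mouse. Irf8 was lower in IL10/2-Trikine than in mono-IL10 macrophages (-0.22), as were 6.33% of all genes, a call lost in 3 of 9 other settings, among them the window (-0.03, edgeR adjusted p = 0.90), and in 5 of 15 fits without 1 mouse. In T cells Irf8 was higher in IL10/2-Trikine than in mono-IL10 (1.5, edgeR adjusted p = 0.0086), as were 6.56% of all genes, and did not pass without other-lineage cells (1.35, edgeR adjusted p = 0.22) or without cycling cells (0.96, edgeR adjusted p = 0.32). The macrophage and monocyte markers summed to 551 to 924 CPM in T cells of PBS mice, 660 to 1014 in mono-IL10 and 382 to 995 CPM in IL10/2-Trikine. T cell depth differed between mono-IL10 and IL10/2-Trikine, as given above.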

How the data were processed

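Droplet 5′ libraries (10x GEM-X) of the 3 treatments were used, and the hashtag reads of each. The deposited matrices held UMI counts per gene and barcode, which the authors made with Cell Ranger 9.0.1 on GRCm39 and had not normalized. A deposited table gave, for NK and T cells, the authors' clusters and mice, and 7858 cells of it from a group with no sample were not used. Barcodes needed 1000 or more genes and no more than 10% mitochondrial UMIs (kept: 34518 in PBS, 24060 in mono-IL10, 46104 in IL10/2-Trikine). Hashtags were called with HTODemux (Seurat 5.3.0, quantile 0.99), and 11.6%, 8.64% and 13.3% of these barcodes, with more than 1 hashtag, were removed as doublets. Macrophages, dendritic cells and tumor cells came from k-means clusters (scikit-learn 1.9.0) that were computed without the members and named by marker lists. Part of the naming rule was set after clusters had been inspected.

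Counts were summed per mouse for mice with at least 10 cells. They were tested with edgeR 4.0.16 (quasi-likelihood, TMM, filterByExpr, the 3 groups in 1 fit, Benjamini-Hochberg over all genes, threshold 0.05), with DESeq2 1.42.0 as an alternative. Tests were checked on simulated counts. Log2 differences are on the TMM scale, and SEs and intervals of 2 SE come from the fit. The members and gene lists were chosen with earlier results of these data known. Named were the 5 immunoproteasome and 3 constitutive catalytic genes, the 3 other members with the smallest p past the threshold per population and comparison, and the 2 such genes of each other list. Genes named beyond these were chosen after their values were seen. Depth was 10925 UMIs of members in NK cells, 20511 in T cells, 33685 in dendritic cells, 454445 in macrophages and 2908036 in tumor cells. The result of 1 listed gene is not reported here.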

Additional observations from a re-analysis of the deposited data

Results flagged for a closer look

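Of 150 groups of mice (10 measures, 5 populations, 3 treatments), 14 had 1 mouse far from the others of its group, where chance gives about 5% of groups. In NK cells the PBS mouse 1, with 10 cells, had 206 CPM of Psmb10 (others 69.5 to 101) and 354 CPM of Psme2 (198 to 226). In macrophages the PBS mouse 4 had 130 CPM of Psmb9 (100 to 109), the mono-IL10 mouse 1 had 4274 CPM of all members (3776 to 3903) and 166 CPM of Psme2 (114 to 123), and the IL10/2-Trikine mouse 3 had an immunoproteasome share of 49.0% (44.5 to 45.6%) and 72.2 CPM of Psmb10 (84.0 to 88.0). In dendritic cells the PBS mouse 3 had 6911 CPM of all members (6040 to 6231), 621 CPM of Psmb8 (467 to 508) and 712 CPM of Psme2 (467 to 517), and the mono-IL10 mouse 2 had 145 CPM of Psmb6 (183 to 189). In tumor cells the PBS mouse 4 had a share of 36.0% (24.2 to 27.4%), 157 CPM of Psmb8 (79.2 to 96.8) and 124 CPM of Psmb9 (60.9 to 71.8).

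For 25 differences of effects, tumor cells and macrophages differed in their log2 response (tumor cells minus macrophages, edgeR interaction, adjusted p 0.0015 to 0.049). For IL10/2-Trikine against PBS these were Psme1 0.35, Psmd13 -0.46, Psmc4 -0.36, Psmc5 -0.32 and Psmd8 -0.30. For mono-IL10 against PBS they were Psme1 0.36, Psma4 0.33, Psmb2 0.29, Psma3 0.24 and Psmd4 0.18. For IL10/2-Trikine against mono-IL10 the ATPases Psmc4 -0.50, Psmc5 -0.35, Psmc2 -0.32 and Psmc6 -0.27 differed, as did the non-ATPases Psmd8 -0.42, Psmd4 -0.36, Psmd7 -0.34, Psmd13 -0.34, Psmd12 -0.31, Psmd2 -0.31 and Psmd11 -0.28, and the core subunits Psmb2 -0.30, Psma3 -0.28, Psma1 -0.25 and Psma4 -0.25. The depth per cell of both populations moved with the treatment, and its part in these differences was not tested.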

How the results depend on the processing

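In tumor cells the count in IL10/2-Trikine against PBS was 19 to 26 and against mono-IL10 28 to 30 under other scaling, no filter on low counts, DESeq2, thinned sums, a minimum of 2000 genes, another clustering, without the interferon-led cluster and without any 1 mouse. Without other-lineage cells these fell to 5 and 8, and in the depth window to 13 (11 higher, 2 lower) and 11 (9 higher, 2 lower). Of the 24 and 30 members called, 6 and 6 kept their sign in the depth window, and 5 and 8 passed the other way. Among the genes named by rule in each comparison these reversed there, beside further members in these counts: against PBS Psma1 0.032, Psmd12 0.033, Psmb5 0.18, Psmb6 0.11, Psmb7 0.12 and Tapbp -0.047, against mono-IL10 Psmb5 0.15, Psmb6 0.12, Psmb7 0.18, Psmd12 0.11 and Uchl5 0.18, and in macrophages Psma3 0.0081. Counts for mono-IL10 against PBS in tumor cells were 12 in DESeq2, 0 without other-lineage cells, 1 in the depth window and 1 to 9 without 1 mouse. The cause of the changes in these counts was not tested. Counts in this section are given without the share of all genes, which changed with the setting as well. Of all genes, 11.3% were lower in IL10/2-Trikine than in PBS tumor cells over all cells, and 4.14% without other-lineage cells. The counts alone are therefore no result about the members.

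In macrophages the IL10/2-Trikine against PBS count was 1 with thinned sums, with 2000 genes and in the depth window (each higher), 2 without other-lineage cells and 1 to 5 without 1 mouse. The mono-IL10 against PBS count was 0 with thinned sums and 1 to 6 without 1 mouse. Between treated groups it was 3 with 2000 genes (2 higher, 1 lower) and 5 in the depth window. For NK cells between treated groups it was 1 with no filter on low counts, 0 with thinned sums, without other-lineage cells and without cycling cells, and 0 to 2 without 1 mouse. Without other-lineage cells 1, 2 and 4 mice were left, and the lone PBS mouse was assumed to vary like the others. For T cells it was 3 with no filter (all lower) and 0 with thinned sums, without other-lineage or cycling cells, where the 1 member called, Psmd2, was too low to be tested, and 1 to 2 without 1 mouse. For dendritic cells, IL10/2-Trikine gave 1 with no filter and 1 in DESeq2, against PBS and against mono-IL10. The mono-IL10 immunoproteasome share in T cells, 65.2%, was 63.5% with thinned sums, 62.0% without other-lineage and 66.9% without cycling cells, and that of IL10/2-Trikine, 61.0%, was 55.2% without cycling cells. No paired analysis was possible because mouse numbers are hashtag names and each mouse belonged to 1 group. In the windows the IL10/2-Trikine median stayed lowest, 13417 UMIs against 15391 and 15790 in tumor cells and 3235 against 3721 and 3846 in macrophages. Windows of depth and the interferon-led cluster were chosen after seeing the data.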
